A study of Homo sapiens with 2 samples.

Results

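The clustered protocadherins are 53 protein-coding genes on chromosome 5, 15 in the alpha cluster (PCDHA), 16 in the beta cluster (PCDHB) and 22 in the gamma cluster (PCDHG). They were chosen by symbol from the GENCODE annotation of 19883 protein-coding genes, without use of any peak. OTX2-bound DNA was measured by ChIP-Seq in tumorspheres of D283, an established human medulloblastoma cell line, so the values describe a single line. The tumorspheres were controls without OTX2 knockdown that express OTX2, a homeodomain transcription factor of the developing brain. The paper calls them OTX2-high, a name it also gives to scramble siRNA controls. The tumorspheres were grown in neural proliferation medium with EGF and bFGF. There was 1 library pulled down with an OTX2 antibody and 1 input library made without antibody, so no value has a replicate error and no test was run. The deposited list gives peaks of the ChIP library over the input, with no level of expression, so neither the identity of the cells nor the expression of the protocadherins could be checked.

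Clustered protocadherins are cadherin-like surface proteins by which neurons tell their own branches from those of other neurons. In the alpha and gamma clusters each gene has its own promoter and its own large variable exon, which encodes the extracellular part and is spliced to constant exons shared by the whole cluster. The beta genes have no such shared exons. Most variable promoters are switched on at random in single neurons, while the C-type genes at the end of the alpha and gamma clusters (PCDHAC1, PCDHAC2, PCDHGC3, PCDHGC4 and PCDHGC5) are used more broadly. Promoter choice depends on CTCF and cohesin, which bring distant enhancers to the variable promoters, and enhancers of the alpha cluster are known within and just after its constant exons.

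The promoters of each cluster carry a short string close to the start site, shown here because it marks how alike the variable promoters are. RefSeq promoter sequences of GRCh38.p14, from 250 bases before to 50 bases after the start, were found for 47 of the 53 genes and not for PCDHA3, PCDHA13, PCDHB6, PCDHB11, PCDHGA12 and PCDHGC5. The string of 8 bases held by the most promoters, on the strand of the gene, was ATGTCGCT in the alpha cluster, in 9 of 13 promoters. It was GGTGGCGC in the beta cluster, in 13 of 14 promoters, and GCCGCTGT in the gamma cluster, in 11 of 20. Among 21434 promoters of other protein-coding genes, searched on both strands, these strings were held by 0.196%, 2.64% and 1.80%, in that order. The strings were picked from the member promoters themselves, so part of the difference is built in. The strings began a median of 52, 66 and 67 bases before the start site. PCDHAC1, PCDHAC2 and PCDHB1 were among the genes without the string of their cluster. In the examples that follow, all on the plus strand of chromosome 5 in GRCh38.p14, the string is in capitals.
PCDHA1, chr5:140786090-140786113: gccacatgATGTCGCTgtacacca
PCDHA6, chr5:140827901-140827924: gccgcatgATGTCGCTgtctacca
PCDHA7, chr5:140834176-140834199: gccacatgATGTCGCTctttaccg
PCDHB3, chr5:141100396-141100419: gaacgcatGGTGGCGCtgttgact
PCDHB16, chr5:141182313-141182336: gaacgcgtGGTGGCGCtgcaggtt
PCDHGB1, chr5:141350031-141350054: ctctgggcGCCGCTGTcgaccaaa
PCDHGA10, chr5:141412937-141412960: ctctgagcGCCGCTGTtcacctac
PCDHGC3, chr5:141475886-141475909: ctctgtgtGCCGCTGTcggccaat
The alpha and gamma strings share the core CGCT. In the beta promoters with their string, the next base is T, which completes the same core. On the strand of the gene, CGCT occurred in the 150 bases before the start in 44 of 47 members (93.6%), against 9350 of 21434 other protein-coding promoters (43.6%). As CGCT was taken from the strings of these same promoters, part of this difference, too, is built in. It does not distinguish the clusters (92.3%, 92.9% and 95% of alpha, beta and gamma promoters).

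OTX2 is known to bind TAATCC and TAATCT. Searched for on both strands of the promoter window, these occurred in 11 of 47 members (23.4%), TAATCC in 3 and TAATCT in 8, and in 2278 of 21486 promoters of protein-coding genes, members included (10.6%). Both motifs are rich in A and T, and median GC content was 39.7% in the members against 62.7% in protein-coding promoters. Promoters of like GC content were not compared, so the part of base composition in these shares was not tested. By cluster they occurred in 2 of 13 alpha, 3 of 14 beta and 6 of 20 gamma promoters. The next lines give the bases upstream of 4 start sites on the plus strand of GRCh38.p14, with OTX2 motifs and the string of the cluster in capitals. PCDHAC2, PCDHGB1 and PCDHGA10 are shown because they have an OTX2 peak, and PCDHB16 because it lay farthest from any peak.
PCDHAC2, chr5:140966226-140966475: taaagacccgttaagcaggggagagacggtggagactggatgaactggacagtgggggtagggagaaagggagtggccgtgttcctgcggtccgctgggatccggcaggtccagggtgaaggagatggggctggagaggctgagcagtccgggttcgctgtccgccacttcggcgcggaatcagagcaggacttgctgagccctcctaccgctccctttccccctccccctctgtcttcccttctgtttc
PCDHGB1, chr5:141349849-141350098: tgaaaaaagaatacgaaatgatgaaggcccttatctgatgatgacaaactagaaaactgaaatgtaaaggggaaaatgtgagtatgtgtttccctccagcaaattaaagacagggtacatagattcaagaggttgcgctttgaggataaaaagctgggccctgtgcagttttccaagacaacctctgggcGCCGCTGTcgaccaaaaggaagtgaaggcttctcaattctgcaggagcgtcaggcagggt
PCDHGA10, chr5:141412737-141412986: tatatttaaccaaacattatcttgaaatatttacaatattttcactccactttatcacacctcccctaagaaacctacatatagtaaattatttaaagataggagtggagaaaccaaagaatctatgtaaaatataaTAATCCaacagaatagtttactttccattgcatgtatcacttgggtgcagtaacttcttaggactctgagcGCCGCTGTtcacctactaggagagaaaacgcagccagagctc
PCDHB16, chr5:141182137-141182386: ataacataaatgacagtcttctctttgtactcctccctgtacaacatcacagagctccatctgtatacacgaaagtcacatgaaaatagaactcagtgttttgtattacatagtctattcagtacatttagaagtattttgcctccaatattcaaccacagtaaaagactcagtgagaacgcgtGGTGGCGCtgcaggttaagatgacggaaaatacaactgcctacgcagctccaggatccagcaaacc
All 250 of these bases of PCDHAC2 lie in its peak, and they hold neither motif. The summit lies just before the first of them, however. The part of this 1374 bp peak upstream of the stretch was not read for motifs. In PCDHGB1, 87 of the bases lie in the peak, which has its summit at base 227, and there is again no motif. The PCDHGA10 stretch holds 1 TAATCC, outside the 27 bases that lie in its peak.

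OTX2 peaks were scarce at the variable promoters. Only 4 of the 53 genes (7.55%) had a peak overlapping the 1 kb on either side of the transcription start site (TSS), whereas 9329 of all 19883 protein-coding genes (46.9%) had one. These were PCDHA3 and PCDHAC2 in the alpha cluster (2 of 15, 13.3%) and PCDHGB1 and PCDHGA10 in the gamma cluster (2 of 22, 9.09%). None of the 16 beta genes had a peak. The TSS here is the start of the gene record. With the start of the canonical transcript the count was 5 of 53, which added PCDHA11, against 9668 of 19883 genes. With a fold enrichment of at least 5, which is the scaled ChIP pileup at the summit over the local input with 1 added to each, PCDHAC2 alone was left (1.89% of members), against 5672 of all protein-coding genes (28.5%). In the wider window of the study, which reached 5 kb upstream and 2 kb downstream, 7 of 53 members (13.2%) had a peak against 11367 of 19883 genes (57.2%). The 3 added genes were PCDHA11, PCDHGA4 and PCDHGB7, and the beta count stayed at 0.

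**Figure D1:**
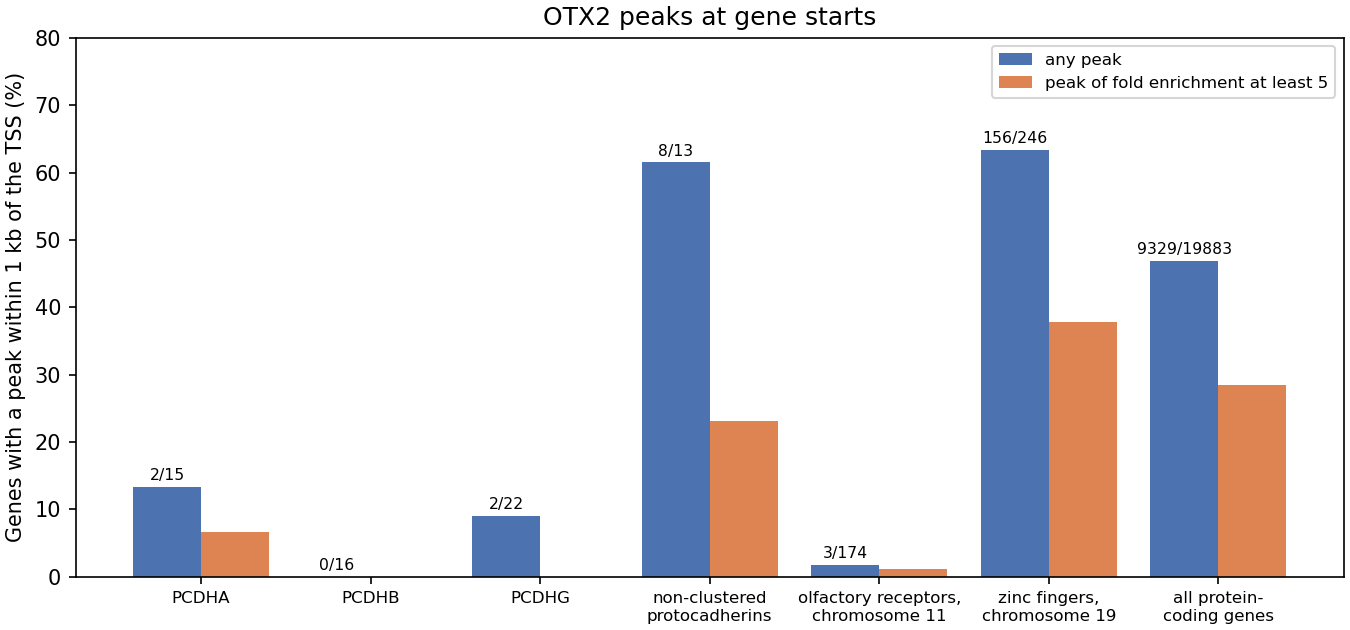
Share of genes with an OTX2 peak within 1 kb of the TSS (percent, bars from 0), with any peak and with a peak of fold enrichment at least 5; the counts above the bars are those for any peak. The PCDHA, PCDHB and PCDHG bars stand at 13.3%, 0% and 9.09%, below the 46.9% of all protein-coding genes and the 61.5% of the non-clustered protocadherins.

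Among the 4 genes with a peak, PCDHAC2, the last variable gene of the alpha cluster, stood apart. Its peak at chr5:140965198-140966571 (GRCh38) was 1374 bp long and reached 162 ChIP fragments at a summit 250 bp before the TSS (95% exact Poisson interval 138 to 189). The local input there was 5.85. Local inputs are given in units of the scaled pileup, in which 1 ChIP fragment counts 0.735. The fold enrichment of this peak, 17.53, was above that of 90.5% of all peaks, and its −log10 q was 106.15. A weaker peak, at chr5:140967026-140967473, lay in the variable exon 919 bp downstream of the TSS, with 33 fragments and a fold enrichment of 3.79.

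The other 3 peaks were small. In PCDHA3 the peak at chr5:140800918-140801237 had its summit in the variable exon, 66 bp downstream of the TSS, where 29 fragments (19.4 to 41.6) gave 4.48-fold enrichment at a −log10 q of 7.52. In PCDHGB1 the peak at chr5:141350012-141350651 peaked 24 bp before the TSS, where 31 fragments (21.1 to 44) gave 2.97-fold enrichment at a −log10 q of 4.06. The PCDHGA10 peak at chr5:141412960-141413257 had its summit in the variable exon, 118 bp downstream of the TSS, where 20 fragments (12.2 to 30.9) gave 3.15-fold enrichment at a −log10 q of 2.96. The fragment intervals of these 3 peaks overlap each other, and none overlaps that of PCDHAC2. All 3 heights were below the median of 53 fragments over all peaks, where the smallest peak had 15. These intervals cover counting error of the ChIP library only.

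Of the 5 C-type genes, PCDHAC2 was the only one with a peak within 1 kb. The nearest summit lay 14.77 kb from PCDHAC1, 33.24 kb from PCDHGC3, 24.19 kb from PCDHGC4 and 20.11 kb from PCDHGC5.

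The distance from each TSS to the nearest summit separated the beta cluster from the rest. Beta genes lay a median of 108 kb from a summit (10.2 to 138 kb), and 15 of 16 lay more than 50 kb away. Alpha genes lay a median of 13.7 kb away (0.066 to 33.2 kb) and gamma genes 10.8 kb (0.024 to 33.2 kb), and none of either was more than 50 kb away. Thus 15 of the 16 beta distances exceeded every alpha and gamma distance, while the alpha and gamma ranges overlapped. Over all protein-coding genes the median was 1.74 kb, and 7.84% lay more than 50 kb away. The gene farthest from a summit was PCDHA7 in the alpha cluster (33.17 kb), PCDHB16 in the beta cluster (137.87 kb) and PCDHGC3 in the gamma cluster. PCDHB1, the beta gene nearest the alpha cluster, was the only beta gene under 50 kb, at 10.16 kb. Genes in a row share summits, so these distances are not independent of each other.

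**Figure D2:**
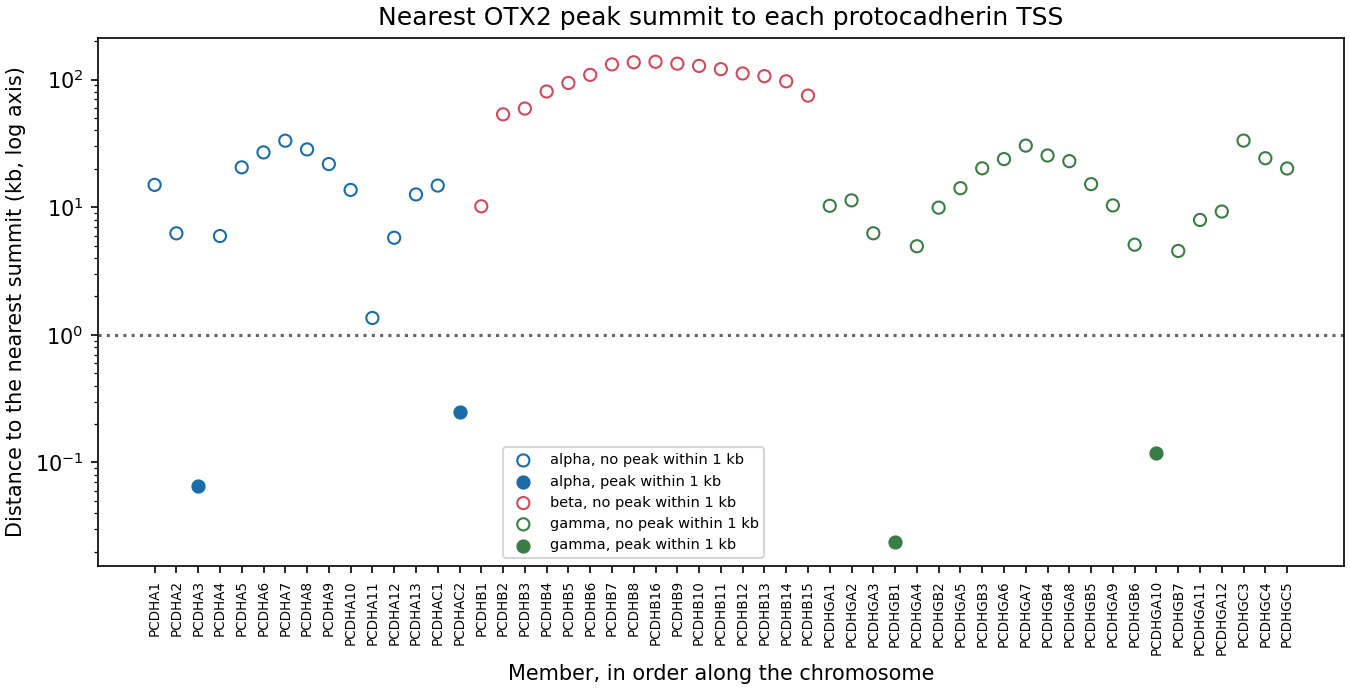
Distance in kb (log axis) from each TSS to the nearest OTX2 summit, with the 53 genes in order along the chromosome, coloured by cluster and filled where a peak lies within 1 kb (dotted line). Beta genes other than PCDHB1 (10.16 kb) form a plateau between 53.40 and 137.87 kb, and the 4 filled points lie in the alpha and gamma clusters.

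The beta cluster lay in a long stretch without peaks. No summit was called between positions 141041212 and 141320257, a gap of 279 kb that holds the TSSs of all 16 beta genes and of SLC25A2 and ENSG00000279983. On chromosome 5, 19 of 9098 gaps between neighbouring summits were longer, and the median gap was 8.97 kb. No gap of chromosome 5 held more protein-coding TSSs than the 18 of this gap. On the autosomes, 410 of 133963 gaps were longer, and 4 held more TSSs. The list holds only called peaks, with a −log10 q of at least 1.31, so coverage below that limit is not seen, and a count of 0 peaks in the 198 kb from the first beta TSS to the end of the beta records allows a density of up to 18.6 peaks per Mb (95% exact Poisson bound).

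Over the whole cluster with 100 kb on either side (chr5:140686136-141612977, 927 kb) there were 43 peaks, or 46.4 per Mb, which is near the 50.1 per Mb of chromosome 5 and the 47.9 per Mb of the autosomes. The peaks were spread unevenly over it. The alpha cluster held 20 peaks in 226 kb (88.4 per Mb, exact Poisson interval 54.0 to 137), the beta cluster 0 and the gamma cluster 4 in 182 kb (21.9 per Mb, 5.97 to 56.1). The alpha interval lies above the bound of the beta cluster, and the alpha and gamma intervals overlap slightly. Neighbouring peaks need not be independent, so these intervals, too, cover counting error only.

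**Figure D3:**
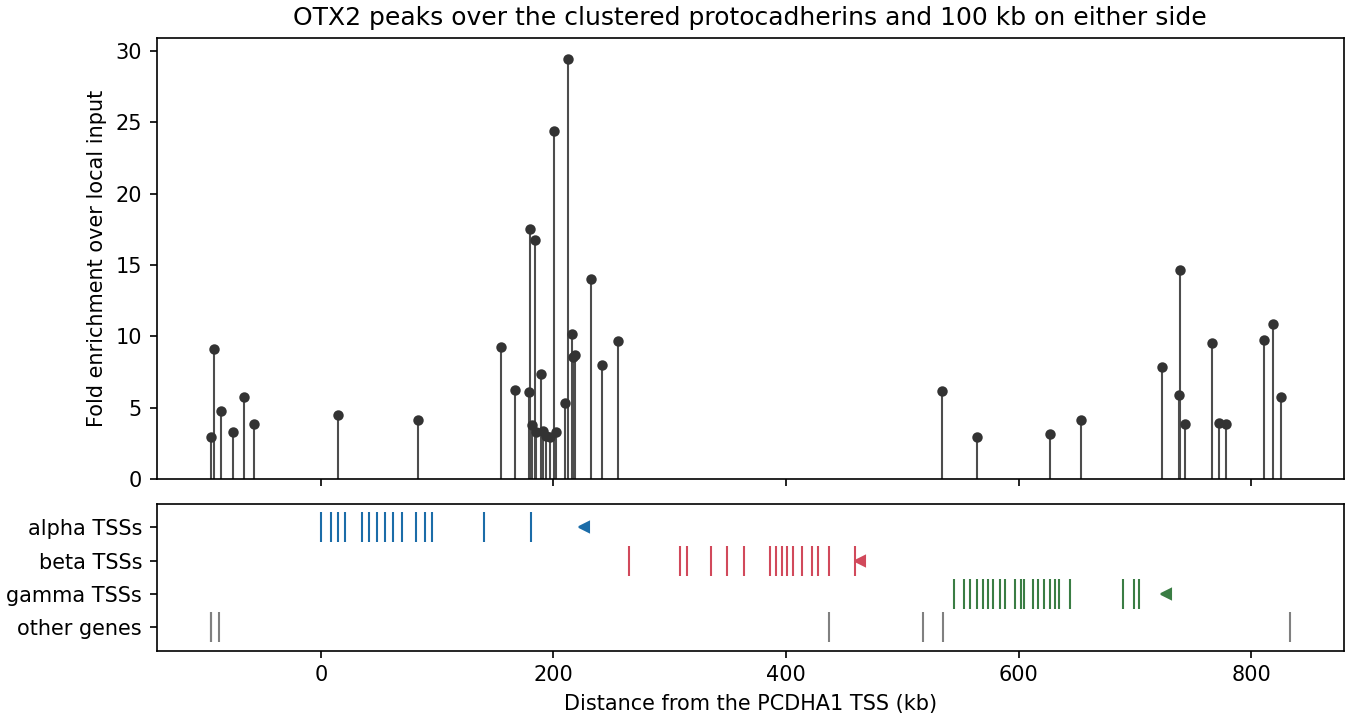
OTX2 peaks as lines with their fold enrichment (upper axis, linear) against the distance in kb from the PCDHA1 TSS, and below them the TSSs of the alpha, beta and gamma genes and of other protein-coding genes, with triangles at the end of each cluster's records. The highest peaks, at 29.46 and 24.39, stand 212.06 and 200.04 kb from PCDHA1, after the last alpha TSS, and no line stands over the beta TSSs.

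Within the alpha cluster the peaks gathered at its end. The 140 kb from PCDHA1 to PCDHAC1, with the TSSs of the 13 genes PCDHA1 to PCDHA13, held 2 peaks (14.3 per Mb), those in the variable exons of PCDHA3 and PCDHA11. The PCDHA11 peak, with its summit 1355 bp downstream of the start of the gene record, had 27 fragments and a fold enrichment of 4.18. It lies within 1 kb of the start of the canonical transcript, whose variable exon begins at position 140868957. The 40.2 kb from PCDHAC1 to PCDHAC2 held 4 peaks (99.6 per Mb), and the 45.9 kb from PCDHAC2 to the end of the alpha records, which contain the constant exons, held 14 (305 per Mb). A further 3 followed in the 39.0 kb before PCDHB1. From the first summit after PCDHAC1 to the last before PCDHB1 (chr5:140941067-141041212), 21 peaks fell in 100 kb, or 210 per Mb, with a median fold enrichment of 8.02, and their intervals covered 15.1% of it. The bounds of this stretch were set after its peaks were seen. The median local input of these peaks was 6, beside 4.98 over chromosome 5, and whether extra copies of this region in D283 play a part was not tested.

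By fold enrichment, the strongest peak and the next lay between constant exons, not at promoters. The strongest, chr5:140997927-140998844, had 245 fragments (215 to 278) and was 29.46-fold enriched, more than 98.3% of all peaks. The next, chr5:140984559-140986648, was 2090 bp long and 24.39-fold enriched, with 264 fragments (233 to 298). Both lie in the intron between the second and the last constant exon of the alpha cluster, at chr5:140982475-140982563 and chr5:141009627-141012347. The PCDHAC2 promoter peak came next at 17.53, followed by a peak 3601 bp downstream of the PCDHAC2 TSS, chr5:140969686-140970440, which was 16.75-fold enriched with 272 fragments (241 to 306). The fifth, chr5:141524527-141525102, lay outside the cluster, within DIAPH1, with 138 fragments and a fold enrichment of 14.64. The fragment intervals of the peaks with 245, 264 and 272 fragments overlap, so their heights are not told apart, and their order by fold enrichment follows their local inputs of 5.15, 7 and 11. Between the alpha cluster and PCDHB1, the 3 peaks had fold enrichments of 14.02, 8.02 and 9.66, and the last of them, chr5:141039480-141041589, spans 2110 bp. Whether any of these peaks coincides with a known enhancer of the alpha cluster was not tested.

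The gamma cluster had few and mostly small peaks. Besides those of PCDHGB1 and PCDHGA10, there was 1 between variable exons, 9248 bp downstream of the PCDHGA12 TSS, with 27 fragments and a fold enrichment of 4.18. The fourth, chr5:141508900-141509406, was 7.85-fold enriched with 52 fragments (38.8 to 68.2). It lay between the second gamma constant exon (chr5:141505393-141505481) and the last (chr5:141510947-141512975), which is the same interval between exons as that of the 2 strongest alpha peaks. Gamma peaks covered 0.928% of their cluster and alpha peaks 5.67%.

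Of the 28 peaks with a summit inside the whole cluster, 4 had it in a variable exon (fold enrichment 3.15 to 4.48), 2 within 1 kb upstream of a variable TSS (2.97 and 17.53) and 0 in a constant exon. The other 22, with fold enrichments from 2.97 to 29.46, lay between exons or between clusters.

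Other protein-coding genes in the extended region were read in the same way. HARS1 and HARS2, the cytosolic and mitochondrial histidyl-tRNA synthetases, share a peak at their divergent starts, with 31 fragments and a fold enrichment of 2.97. TAF7, a subunit of the general transcription factor TFIID, lies between the beta and gamma clusters and had a peak 527 bp downstream of its TSS, at chr5:141320003-141320780, 6.16-fold enriched with 74 fragments (58.1 to 92.9). It is the only peak between these clusters and marks the end of the long gap. ZMAT2, SLC25A2, ENSG00000279983 and DIAPH1 had none within 1 kb, with the nearest summit 1.70, 16.21, 96.88 and 2.76 kb away. Thus 3 of these 7 neighbours had a peak, beside 46.9% of all protein-coding genes. The DIAPH1 gene body holds all 9 peaks of the downstream flank, with fold enrichments from 3.89 to 14.64. Its record (chr5:141515016-141619055) covers nearly all of that flank (chr5:141512978-141612977), so most peaks there had to lie within it.

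The 13 non-clustered protocadherins, which have ordinary promoters of their own, differed from the clustered genes in how often they had a peak. Of these, 8 (61.5%) had one within 1 kb of the TSS, beside 46.9% of all protein-coding genes. Only 3 (23.1%) had one of fold enrichment at least 5, below the 28.5% of all protein-coding genes. These were PCDH8 (15.46), PCDH9 (7.03) and PCDH7 (5.51). The other 5, PCDH18, PCDH10, PCDH17, PCDH1 and PCDH12, lay between 2.65 and 3.59. PCDH15, PCDH20, PCDH11X, PCDH19 and PCDH11Y had none. The share at the clustered genes also lay below that of the zinc finger genes of chromosome 19, another tandem family (156 of 246, 63.4%), and above that of the olfactory receptors of chromosome 11 (3 of 174, 1.72%). Over chromosome 5 as a whole, 461 of 879 genes (52.4%) had a peak. These are descriptions of a single peak list, and no test of the difference between families was run.

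Genes known to act on the clusters or to work with the proteins mostly had a peak at their own TSS. Of 14 regulators of the clustered promoters, 10 (71.4%) had a peak within 1 kb, beside 46.9% of all protein-coding genes, and their median strongest fold enrichment of 5.35 was close to the 5.79 of all genes with a peak. The cohesin subunits SMC3 (13.25), STAG1 (7.10), RAD21 (5.34) and SMC1A (3.44) had peaks and STAG2 had none. The cohesin loader NIPBL (3.70) and the release factor WAPL (4.77) each had 1. The histone methyltransferases SETDB1 (6.75) and EHMT2 (6.54), the DNA methyltransferase DNMT3B (5.36) and SMCHD1 (3.84), a repressive chromatin protein, had peaks, whereas CTCF, WIZ and EHMT1 had none. Of 10 partners of the proteins, 8 (80%) had a peak, beside the same 46.9%. These lists are short and no test of their shares was run. The strongest was CYFIP1 (17.84), of the actin-regulating WAVE complex, and peaks also lay at PTK2 (5.51), a kinase held in check by the cytoplasmic part of the protocadherins, and ABI1 (5.03). PTK2B (4.43), NCKAP1 (4.26), WASF1 (4.22) and ADAM10 (2.83) were lower, and the receptor RET and CYFIP2 had none.

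Base composition moved with the presence of peaks and differed between the clustered genes and other genes. The GC content of the promoter window had a median of 39.7% in the 47 members (32.3 to 66.0%), with 37.3% in the alpha, 40.8% in the beta and 42.0% in the gamma cluster, against 62.7% in protein-coding promoters. PCDHAC2 stood at 63.0%, PCDHGB1 at 47.3% and PCDHGA10 at 38.3%, and PCDHAC1, without a peak, was the highest at 66.0%. Below 45% GC, 1 of 35 members (2.86%) and 370 of 1645 other protein-coding genes (22.5%) had a peak within 1 kb. From 45 to 60% GC these were 1 of 9 (11.1%) and 1991 of 4346 (45.8%), and from 60% GC 1 of 3 (33.3%) and 5114 of 9223 (55.4%). Peaks were counted here at the start of the gene record, but GC content was read at the RefSeq start. At its RefSeq start PCDHA11 (37.3% GC), counted here as without a peak, had one within 1 kb. PCDHA3, which has a peak, has no RefSeq promoter and is left out. The share of members was therefore below that of other genes in each range, with few members in the upper 2, and the part of base composition in the low count of peaks was not tested further.

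**Figure D4:**
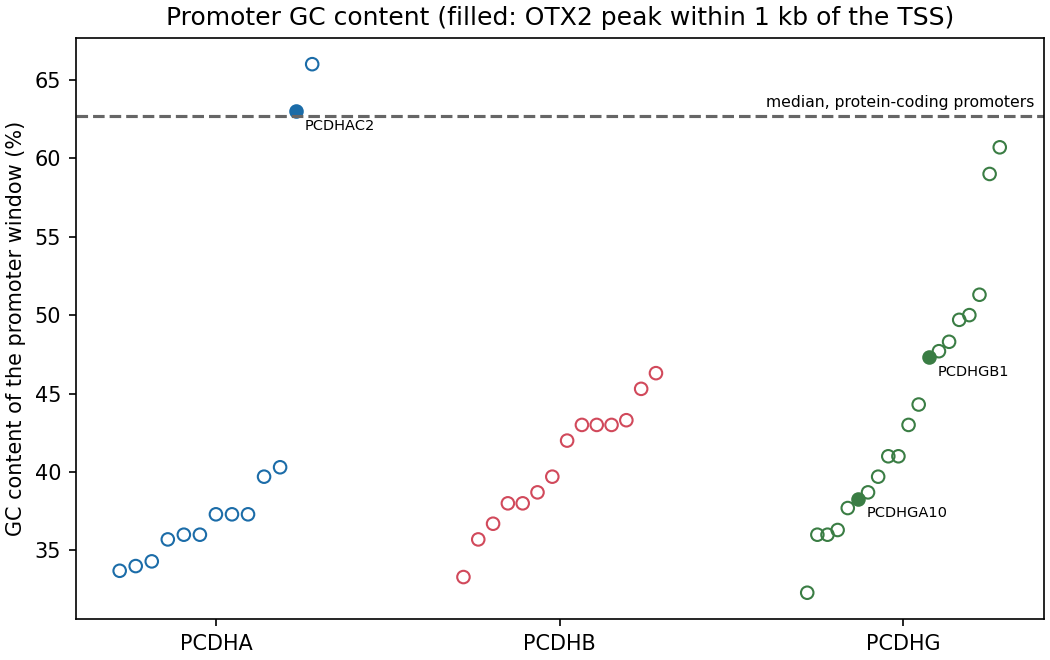
GC content (percent) of the promoter window of each of the 47 members with a RefSeq promoter, sorted within the PCDHA, PCDHB and PCDHG clusters; filled points have an OTX2 peak within 1 kb and the dashed line is the median of protein-coding promoters, 62.7%. Of the 3 filled points, PCDHAC2 lies at the dashed line and PCDHGB1 (47.3%) and PCDHGA10 (38.3%) lie below it. PCDHA11 is open because its peak lies beyond 1 kb of the start of the gene record, though within 1 kb of the RefSeq start.

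Variable exons of a cluster resemble each other, so the share of sequence found in a single place was counted. In GRCh37, with the positions that GENCODE gives there, 86.9% of strings of 32 bases in the alpha cluster, 83.7% in the beta cluster and 87.3% in the gamma cluster occurred once in the genome. Within 1 kb of the TSS the median was 91.3% for alpha genes (64.3 to 100%), 99.2% for beta genes (56.4 to 100%) and 97.8% for gamma genes (73.0 to 100%), beside 99.3% for 830 other genes of chromosome 5. The median of the beta genes was near that of other genes, but PCDHB8 (56.4%), PCDHB13 (56.8%), PCDHB9 and PCDHB10 (78.1% each) lay lower. Each of the other beta genes had at least 96.4%. Over its whole length the beta cluster had the lowest share of the alpha, beta and gamma clusters. Mapped fragments are longer than these strings, and how the authors treated reads with several places is not given in the sources used here, so the part of shared sequence in these counts was not tested further.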

How the data were processed

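Reads of the OTX2 ChIP and input libraries were aligned by the authors to GRCh38 (Bowtie2 2.2.4). They called narrow peaks of ChIP over input with MACS2 2.1.0.20140616 at a q-value cutoff of 0.05, kept 1 fragment per position and, per the study, masked blacklisted regions. This left 61259377 ChIP and 22521186 input fragments. The local input, in units of the scaled pileup, has a floor of 3.98. At peaks near this floor, such as those of PCDHA3 and PCDHGA10, the ChIP fragments limit the precision of the ratio. The deposited pileup is a signal (scaled fragment coverage at each summit), from which whole fragments were read back at 0.735 each (in all 137412 peaks the pileup lay within 0.0051 of a whole number of fragments so scaled). Fold enrichment, as deposited, is the ratio of pileup to local input after adding 1 to each. The −log10 q-value of each peak was deposited too, and the −log10 p-value was not used.

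Gene starts came from GENCODE release 44 in GRCh38, with RefSeq for PCDHA6 and PCDHA7, and no coordinate was converted. An overlap of 1 bp between peak and window sufficed. Genes were named where they had a peak, lay farthest from a summit in their cluster, were C-type genes or were neighbours, and peaks where they were among the 5 of highest fold enrichment. Other genes and peaks named, such as the sequence examples and the promoters with shared strings, were chosen after their values were seen. The regulators and partners were listed from general knowledge, with earlier results of these data known but without looking at these genes. The members were set by symbol alone, though earlier results of these data were known then too. A listed partner is counted but not reported by name here. Sequence within peaks was read only where a RefSeq promoter window overlaps them, since the genome used is of another build. Counting was tested on simulated peaks. Software was Python 3.11.15 with numpy 2.4.6, pandas 2.3.3, matplotlib 3.10.9 and scipy 1.17.1.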

Additional observations from a re-analysis of the deposited data

How the results depend on the processing

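Of 54 values recomputed under other settings, 39 moved by less than the limit set for counts and 15 by more, and the beta cluster had 0 genes with a peak under all settings run. The count of 4 members with a peak became 7 when the window reached 5 kb upstream and 2 kb downstream, 1 with a fold enrichment of at least 5 (PCDHAC2) and 2 with a −log10 q of at least 5 (PCDHA3 and PCDHAC2). It was 5 with the canonical transcript or the RefSeq start, each of which added PCDHA11. At a fold enrichment of at least 5 the alpha count fell to 1, the gamma count to 0 and that of all protein-coding genes to 5672. The gamma count was 4 in the wider window and 0 at the stricter q. Of the 43 peaks in the extended region, 28 remained without the extension and 25 at a fold enrichment of at least 5, when the density was 27.0 per Mb. The alpha density was then 53.0 per Mb and the gamma density 5.48. The gamma density was 11 at the stricter q, and the alpha density 38.4 between its outer TSSs with 1 kb added, which leaves out the constant exons. Stricter thresholds leave fewer peaks by construction. Depth limits the small peaks most, since those of PCDHA3, PCDHGB1 and PCDHGA10 rest on 29, 31 and 20 fragments. With 1 library per condition, no replicate could be left out. No paired analysis was possible because no test was run.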

Other observations

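The upstream flank held 6 peaks in 100 kb (60 per Mb, exact Poisson interval 22 to 131) and the downstream flank 9 (90 per Mb, 41.2 to 171). The highest peak of the upstream flank, chr5:140694310-140694660, lies within HARS2, with 73 fragments and a fold enrichment of 9.11. In the downstream flank the peak with the most fragments, chr5:141551870-141552447, lies within DIAPH1, which encodes an actin-nucleating formin. It was 9.53-fold enriched with 232 fragments (203 to 264), and its local input was 17.0 in units of the scaled pileup. The peak of highest fold enrichment in this flank had 138 fragments.

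After the long gap over the beta genes, the longest stretches between summits in the region were 72.5 kb before the PCDHA3 peak, 71.5 kb between the PCDHA11 peak and the first peak after PCDHAC1, 69.4 kb over the C-type gamma genes, 68.4 kb between the PCDHA3 and PCDHA11 peaks with 8 TSSs, and 63.0 kb between the PCDHGB1 and PCDHGA10 peaks with 13 TSSs.

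Some promoters of the clusters share sequence with each other. Of the 269 strings of 32 bases in a promoter window, PCDHGB4 and PCDHGB5 each had 70 in another member, PCDHB8 and PCDHB13 each 24, and PCDHGB6 and PCDHGB7 each 9, and the other members with a RefSeq promoter had 0. None of these 6 genes had a peak within 1 kb, but only 4 of all 53 members (7.55%) had one, so this does not set them apart. In the wider window of the study PCDHGB7 had a peak.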
